A study of Mus musculus with 37 samples.

Results

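In all, 7 predicted mouse transcripts that carry only a gene-model symbol are described here in cortical astrocytes: Gm10197, Gm10217, Gm10320, Gm10800, Gm10801, Gm20390 and Gm10974. They were taken as the rows of the deposited tables whose Ensembl identifier maps to these symbols, and all 7 were found among 21975 genes, of which 1403 have a symbol of Gm and digits. They were chosen by their own measured values in these libraries. Gm10197, Gm10217, Gm10320, Gm10801 and Gm20390 stand in the list of genes the study ranked lowest in contralateral PTE+ astrocytes, Gm10800 in its list for contralateral injury, and Gm10197 also in its ipsilateral PTE+ list. Gm10974 was added for values that are 0 in most libraries and high in a few. All contralateral differences, the ipsilateral PTE+ difference of Gm10197 and every difference of Gm10974 are therefore given without a test. So are the differences between hemispheres, which contain the contralateral values. Where such a difference is said to meet a threshold, that too is a description.

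RNA was sequenced from astrocytes of CD1 male mice (CD31 in the sample labels, which give wild type as genotype), 4 months after controlled cortical impact (CCI) to the right parietal cortex or sham surgery. Sham mice had a craniectomy and electrodes but no impact, and all mice carried electrodes for EEG. Injured mice with seizures on EEG were called PTE+, for post-traumatic epilepsy, and those without PTE-. The ipsilateral libraries came from 5 sham, 10 PTE- and 4 PTE+ mice and the contralateral libraries from 5 sham, 9 PTE- and 4 PTE+ mice, 37 in all, and 17 mice had both. The cells were dissociated with papain and taken with ACSA-2 MicroBeads, which bind an astrocyte surface antigen. The age of the mice at surgery is not given in the sources used here.

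Predicted gene models are annotated from sequence, and many have no known product. When a read fits several transcripts, RSEM, the program used by the authors, divides it among them in proportion to their estimated abundance, so a copy of an expressed gene can take or lose reads of that gene. TPM are read counts divided by the usable length of the transcript and scaled to the same total in every library, so in a very short transcript few reads give a high value. The library kit does not mark strand, so reads of genes that overlap on opposite strands cannot be told apart.

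The sequences fell into 3 kinds, shown here because the kind of sequence bears on how reads can be assigned (GENCODE vM21 transcripts on GRCm38, 5′ to 3′). Gm10217 (chr8:9864251-9870315, plus strand, 2 exons, 135 bases) and Gm10974 (3 exons, 126 bases, in introns of Lrrk1 on the opposite strand) hold few different short words of sequence. Gm10217 is printed whole with runs of at least 4 copies of a dinucleotide in capitals:
Gm10217: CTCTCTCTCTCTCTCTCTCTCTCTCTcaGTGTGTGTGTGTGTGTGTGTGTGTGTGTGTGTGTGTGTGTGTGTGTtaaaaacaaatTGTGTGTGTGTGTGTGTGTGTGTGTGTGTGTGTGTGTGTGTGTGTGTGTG
In Gm10217 such runs made up 90.4% of the bases and in Gm10974 11.1%, against a median of 0% over 55341 genes of the annotation. The first 126 bases held 26 different words of 6 bases in Gm10217 and 41 in Gm10974, against a median of 117 over all genes. Gm10217 aligned with parts of 4049 other genes and Gm10974 with parts of 845.

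The second kind shares its sequence with a named gene, at the same locus (Gm10197, Gm20390) or at another (Gm10320). Gm10197 (chr19:53371566-53371766, minus strand, 1 exon, 201 bases) lies on the opposite strand of Mxi1, whose product binds MAX and counters MYC. Of its bases, 161 lie opposite coding sequence of Mxi1 and 33 opposite other exon bases of that gene. The transcript from base 34 to its end is shown, with the bases opposite Mxi1 coding sequence in capitals:
Gm10197: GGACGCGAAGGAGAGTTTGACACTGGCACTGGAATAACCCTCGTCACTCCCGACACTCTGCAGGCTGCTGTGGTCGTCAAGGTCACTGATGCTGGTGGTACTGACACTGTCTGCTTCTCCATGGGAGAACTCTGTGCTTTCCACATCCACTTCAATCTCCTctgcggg
Gm10320 (chr13:98489348-98492001, minus strand, 2 exons, 527 bases) was 98.7% identical over 467 bases to Sec61b, which encodes a subunit of the channel that moves proteins into the endoplasmic reticulum. The first 300 bases of its annotated coding sequence are shown, with bases that had no match in Sec61b in capitals, most of them before base 48, where the alignment starts:
Gm10320: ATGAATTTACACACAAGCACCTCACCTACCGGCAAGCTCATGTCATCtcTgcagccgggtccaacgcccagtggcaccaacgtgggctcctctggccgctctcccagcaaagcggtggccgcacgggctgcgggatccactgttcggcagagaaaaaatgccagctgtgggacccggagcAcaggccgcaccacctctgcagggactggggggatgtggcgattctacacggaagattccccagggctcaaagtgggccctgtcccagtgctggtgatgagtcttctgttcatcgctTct
Gm20390 (chr11:93949819-93968293, minus strand, 8 exons, 991 bases) joins 418 bases of Nme1 exons to 573 bases of Nme2 exons, neighbouring genes that encode nucleoside diphosphate kinases. The join is shown, with the Nme2 side in capitals:
Gm20390: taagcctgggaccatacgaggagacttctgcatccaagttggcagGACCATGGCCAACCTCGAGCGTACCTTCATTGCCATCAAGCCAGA

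The third kind is satellite-like. Gm10801 (chr2:98662237-98664083, plus strand, 4 exons, 504 bases) and Gm10800 (chr2:98666547-98667301, minus strand, 5 exons, 660 bases) resemble the repeated DNA that packs the regions beside mouse centromeres. They were 89.8% identical over 509 aligned bases, so they are related but not near-identical copies. The first 240 bases of each are shown, with runs of at least 25 bases found in the other in capitals:
Gm10800: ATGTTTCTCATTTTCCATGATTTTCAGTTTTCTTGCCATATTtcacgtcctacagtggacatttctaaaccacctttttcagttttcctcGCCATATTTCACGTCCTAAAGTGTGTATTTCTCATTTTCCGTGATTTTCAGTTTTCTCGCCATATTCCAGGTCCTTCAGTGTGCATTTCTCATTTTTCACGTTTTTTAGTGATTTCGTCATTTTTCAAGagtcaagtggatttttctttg
Gm10801: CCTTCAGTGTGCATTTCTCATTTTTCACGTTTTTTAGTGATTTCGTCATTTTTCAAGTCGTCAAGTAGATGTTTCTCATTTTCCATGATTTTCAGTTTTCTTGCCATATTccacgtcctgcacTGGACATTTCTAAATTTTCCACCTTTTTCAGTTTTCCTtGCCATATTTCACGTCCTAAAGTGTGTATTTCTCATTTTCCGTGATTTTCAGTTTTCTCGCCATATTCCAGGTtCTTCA
Such runs covered 71.7% of Gm10800 and 69.2% of Gm10801. Both aligned to 12 other genes, 11 of them in the tables, and Gm10721 had the highest identity with each (93.4% with Gm10800 and 91.6% with Gm10801, where Gm10720 tied).

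Exact sharing with other transcripts differed between the members. Windows of 100 bases, the length of a read, were compared with all transcripts of other genes on both strands. Such a window was found elsewhere for 95.1% of positions in Gm10197, all opposite Mxi1, for 89.5% in Gm20390 and for 12.1% in Gm10320. It was found for 0% of positions in Gm10217, Gm10974, Gm10800 and Gm10801. In windows of 50 bases the share rose to 39.7% in Gm10320, 30.1% in Gm10800, 17.1% in Gm10801 and 9.3% in Gm10217, whose 50-base windows were found in 456 other genes. In Gm20390, 94 of the 99 windows across the join were found in neither Nme1 nor Nme2. All 7 were shorter than the median gene (3031 bases for the longest transcript), and Gm10974, Gm10217 and Gm10197 were shorter than all but 0.0681%, 0.073% and 0.131% of genes.

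How many reads stand behind a TPM value cannot be recovered from these tables, and no interval for counting error is given. In bulk RNA, fewer cells of a type and less RNA per cell cannot be told apart. Libraries had 15599 to 18534 genes above 0 TPM, apart from the ipsilateral library of PTE- mouse 9_14 with 10727. Summed TPM of 8 astrocyte markers ranged from 13609 to 19135. Markers of other cells were also present, with medians by group of 907 to 2410 TPM for 4 oligodendrocyte, 46.5 to 83.1 for 6 microglial, 98.7 to 201 for 4 neuronal, 223 to 468 for 3 endothelial and 869.7 to 2427 for 2 erythrocyte genes. Their part in the members' values was not tested.

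Whether a library had a transcript at all was compared first. A gene was called on-off if it was at 0 TPM in at least 3 libraries and at 5 TPM or more in at least 3. Gm10197, Gm10217, Gm10320, Gm20390 and Gm10974 met this, but Gm10800 and Gm10801 did not, as neither was at 0 in any of the 37 libraries. The on-off label thus held for 5 of 7 members. Among all 20635 genes above 0 in some library, 77 (0.373%) were on-off. Of these 29 were predicted genes, 2.79% of the 1040 predicted genes above 0 somewhere, against 0.245% of other genes. By length the share was 36.5% of genes under 300 bases (19 of 52) against 0.101% of genes of 2000 bases or more (15 of 14885). The highest TPM among on-off genes was that of Gm10217, followed by Gm21961, Ttr, Gm17571 and S100a5. Most predicted genes were thus not on-off. Gm14296, which the study also names, ranged from 2.74 to 13.6 TPM and was at 0 in no library.

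**Figure D1:**
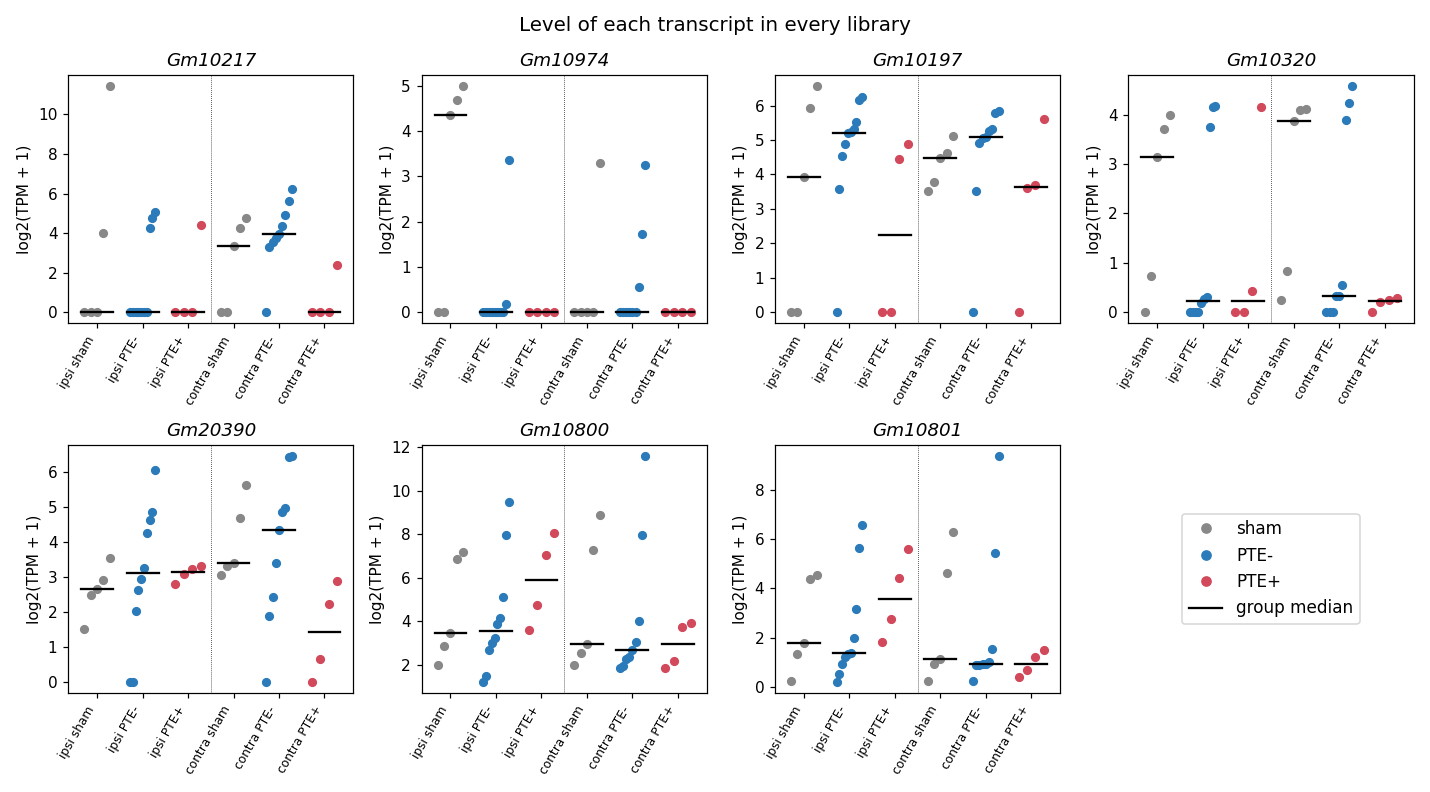
Each point is 1 library, with log2(TPM + 1) on the vertical axis, the 6 groups on the horizontal axis and a bar at the group median. Gm10197, Gm10217 and Gm10320 fall into a set of libraries at or near 0 and a set well above it, while Gm10800 and Gm10801 spread without a gap at 0.

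Gm10217, the dinucleotide repeat, was at 0 in 19 libraries and its lowest value above 0 was 4.29 TPM. In ipsilateral sham mice it was 0, 0, 0, 15.04 and 2735 TPM, and in ipsilateral PTE+ mice 0, 0, 0 and 20.5. In ipsilateral PTE- mice the lowest, median and highest values were 0, 0 and 32.2, with 7 of 10 at 0. The value of 2735 TPM in sham mouse 9_11 thus stood alone, as the next highest of all 37 libraries was 73.3. In contralateral cortex it was 0, 0, 9.3, 18.4 and 26.3 TPM in sham mice and 0, 0, 0 and 4.29 in PTE+ mice. In contralateral PTE- mice the lowest, median and highest were 0, 14.3 and 73.3, with 1 of 9 at 0. The 4 contralateral PTE+ libraries were lower than the 8 PTE- libraries above 0, and the groups overlapped only through PTE- mouse 8_9. On the log2(TPM + 1) scale that contralateral difference, which chose the gene, was -3.36 ± 0.84 (SE).

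Gm10974, the other transcript with few different short words, was at 0 in 28 of 37 libraries. In ipsilateral sham mice it was 0, 0, 19.4, 24.7 and 30.8 TPM. It was 0 in all 4 ipsilateral PTE+ mice and in 8 of 10 PTE- mice, and the other 2 had 0.14 and 9.38. The 3 highest values of the series were therefore all ipsilateral sham libraries, and the other 2 sham libraries overlapped with the injured ones at 0. In contralateral cortex it was above 0 in 1 of 5 sham mice (8.88), 3 of 9 PTE- mice (0.46, 2.29 and 8.58) and 0 of 4 PTE+ mice. The ipsilateral difference of CCI from sham, known when the gene was chosen, was -2.55 ± 0.72 (SE) on the log2 scale, with all 14 injured libraries below the sham median.

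Gm10197, the transcript opposite Mxi1, was at 0 in 7 libraries and at 10.4 TPM or more in the other 30. In ipsilateral sham mice it was 0, 0, 14.3, 60.4 and 93.2 TPM and in ipsilateral PTE+ mice 0, 0, 20.9 and 28.4. In ipsilateral PTE- mice the lowest, median and highest values were 0, 36.2 and 74.8, with only mouse 9_14 at 0. The PTE+ values lay within the PTE- range, and all 4 were under the PTE- median. In contralateral cortex it was 10.4, 12.6, 21.3, 23.8 and 33.9 TPM in sham mice and 0, 11.1, 11.95 and 48.1 in PTE+ mice. In contralateral PTE- mice the lowest, median and highest were 0, 33.2 and 55.9. PTE+ libraries thus included both a 0 and a value above all but 2 of the PTE- libraries. Mxi1 itself was between 79.5 and 173 TPM in all 37 libraries, and its Pearson r with Gm10197 over these libraries was 0.01 on the log2 scale.

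Gm10320, the relative of Sec61b, had no library between 0.77 and 7.87 TPM. It was at 0 in 11 libraries, from 0.13 to 0.77 in 13 and from 7.87 to 22.9 in the other 13. Its values in ipsilateral sham mice were 0, 0.65, 7.87, 12.1 and 14.98 TPM and in ipsilateral PTE+ mice 0, 0, 0.35 and 16.8. In ipsilateral PTE- mice the lowest, median and highest were 0, 0.165 and 17.2, with 3 of 10 in the upper set. The upper set thus occurred in all 3 ipsilateral groups. In contralateral cortex it was 0.18, 0.77, 13.8, 16.2 and 16.4 TPM in sham mice and 0, 0.15, 0.19 and 0.22 in PTE+ mice. In contralateral PTE- mice the lowest, median and highest were 0, 0.26 and 22.9, with 3 of 9 in the upper set. No contralateral PTE+ library was in the upper set, and the PTE+ mouse that was in it on the ipsilateral side, 9_19, has no contralateral library. Sec61b ranged from 87.7 to 246 TPM, and Gm10320 made up 0% to 16.9% of the sum of both genes (median 0.162%). Over the 37 libraries Pearson r between Gm10320 and Sec61b was -0.56 and Spearman rho -0.405. Nme2, which did not align with Gm10320, had -0.51 and -0.428, and the lowest r of Gm10320 was -0.63 (Psma7). Some reads fit both Gm10320 and Sec61b, and their part in these values was not tested.

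Gm20390, the join of Nme1 and Nme2, was at 0 in 4 libraries. Ipsilateral sham mice had 1.84, 4.6, 5.29, 6.58 and 10.6 TPM and in ipsilateral PTE+ mice 6.04, 7.52, 8.34 and 9.01. In ipsilateral PTE- mice the lowest, median and highest were 0, 7.65 and 65.6. The PTE- spread took in every sham and PTE+ value. In contralateral cortex it was 7.32, 9.02, 9.67, 25.1 and 48.6 TPM in sham mice and 0, 0.56, 3.65 and 6.35 in PTE+ mice. In contralateral PTE- mice the lowest, median and highest were 0, 19.4 and 87.7. The highest contralateral PTE+ value, 6.35, lay just under the lowest sham value, 7.32, and PTE- libraries overlapped with both. The PTE+ values chose the gene, and the share of all genes separated in this way is not given here. The contralateral PTE+ difference from PTE-, which chose the gene, was -2.44 ± 0.996 (SE) on the log2 scale.

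Relative to its level, the sum of Nme1, Nme2 and Gm20390 varied less than Gm20390 did, though in TPM the sum had the wider range. The sum ranged from 183 to 332 TPM over all libraries and Gm20390 from 0 to 87.7 TPM. Gm20390 took 0% to 28.1% of the sum (median 3.13%). By group the median share was 2.26% in ipsilateral sham, 3.04% in ipsilateral PTE- and 3.18% in ipsilateral PTE+ mice. In contralateral cortex it was 4.44% in sham, 7.62% in PTE- and 0.772% in PTE+ mice. The median sum lay between 236 and 259 TPM in all 6 groups.

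**Figure D2:**
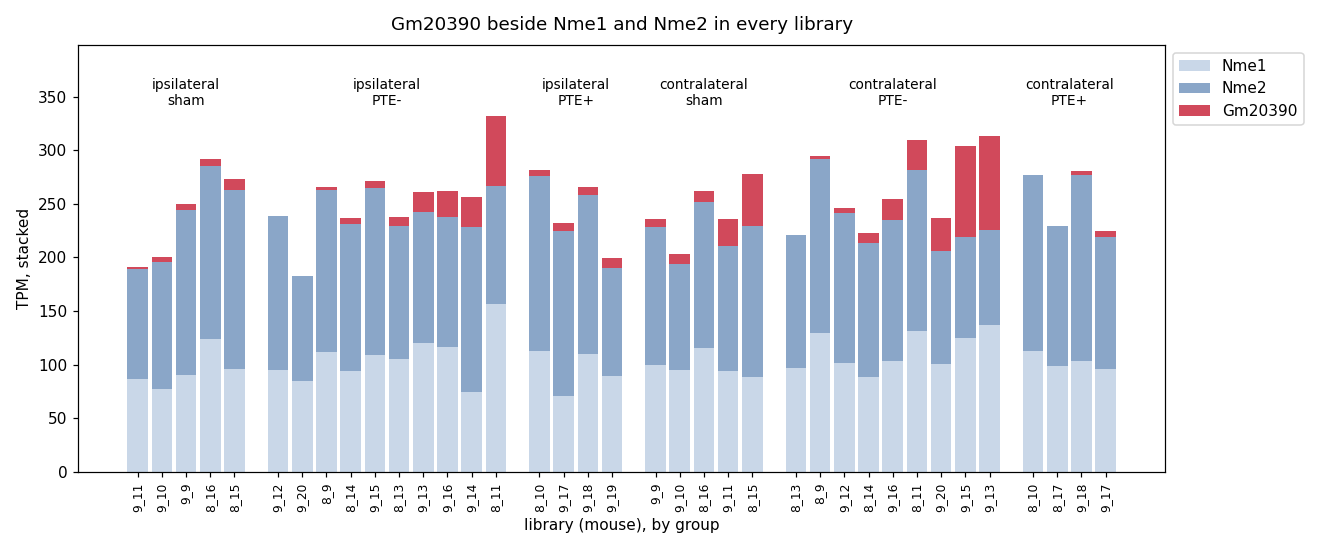
Stacked bars show TPM of Nme1, Nme2 and Gm20390 in each of 37 libraries, ordered within each group by Gm20390. The height of the bars runs from 183 to 332 TPM. The share of Gm20390 runs from 0% to 28.1% and has its widest range in contralateral PTE- mice.

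Gm10800 and Gm10801, the satellite-like pair, were above 0 everywhere but spanned 1.34 to 3094 TPM and 0.16 to 656 TPM. In ipsilateral sham mice Gm10800 was 2.98, 6.29, 9.98, 117 and 147 TPM and in ipsilateral PTE+ mice 11.2, 26.0, 132 and 265. In ipsilateral PTE- mice its lowest, median and highest were 1.34, 11.04 and 716. High libraries thus occurred in all 3 ipsilateral groups. In contralateral cortex Gm10800 was 2.96, 4.9, 6.7, 152 and 478 TPM in sham mice and 2.6, 3.48, 12.3 and 14.3 in PTE+ mice. In contralateral PTE- mice its lowest, median and highest were 2.58, 5.39 and 3094. The group medians of contralateral cortex lay close together, and only sham and PTE- mice had high libraries.

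Gm10801 followed the same libraries at a lower level. In ipsilateral sham mice it was 0.17, 1.52, 2.45, 19.9 and 22.2 TPM and in ipsilateral PTE+ mice 2.57, 5.73, 20.4 and 47.5. In ipsilateral PTE- mice its lowest, median and highest were 0.16, 1.56 and 92.8, and in contralateral PTE- mice 0.17, 0.93 and 656. The median library was thus far below the highest in both. In contralateral sham mice it was 0.17, 0.92, 1.22, 23.3 and 76.1, and in contralateral PTE+ mice 0.32, 0.61, 1.3 and 1.79. Both PTE- maxima were from mouse 8_11. In the 10 libraries with Gm10800 at 100 TPM or more the ratio of Gm10800 to Gm10801 was between 4.71 and 7.71. In all 37 it was between 2.57 and 28.8, with a median of 5.83.

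The other satellite-like genes of a set list moved with this pair. Of 10 listed, Gm10715, Gm10717 to Gm10722, Gm11168 and Gm17535 are in the tables and Gm26870 was not analysed here. Pearson r of these 9 and Gm10801 with Gm10800 over 37 libraries ran from 0.885 to 0.989 on the log2 scale, between related sequences. The summed TPM of the 9 and both members was 8106 in the contralateral and 1972 in the ipsilateral library of mouse 8_11. Elsewhere the sum was as low as 4.96, and its group medians were 28.8, 32.1 and 230.3 in ipsilateral sham, PTE- and PTE+ and 24.3, 19.9 and 28.1 in contralateral sham, PTE- and PTE+ mice. In no comparison was any of the tested list genes, 5 to 8 of them, a differentially expressed gene as defined below.

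A count of detected olfactory receptor genes was set beside these values. Olfactory receptor genes, which act in smell and were counted after the values had been seen, were above 0 TPM for 158 to 707 of 1097 genes per library (median 225). The 2 highest counts, 707 and 665, were the contralateral and ipsilateral library of mouse 8_11, and the third, 421, was the contralateral library of sham mouse 9_10. Mouse 8_11 also had the most genes above 0 in each hemisphere (18534 and 18319). Over 37 libraries Pearson r of this count with log2 Gm10800 was 0.62 and Spearman rho 0.304. The part of these counts in the satellite-like values was not tested.

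**Figure D3:**
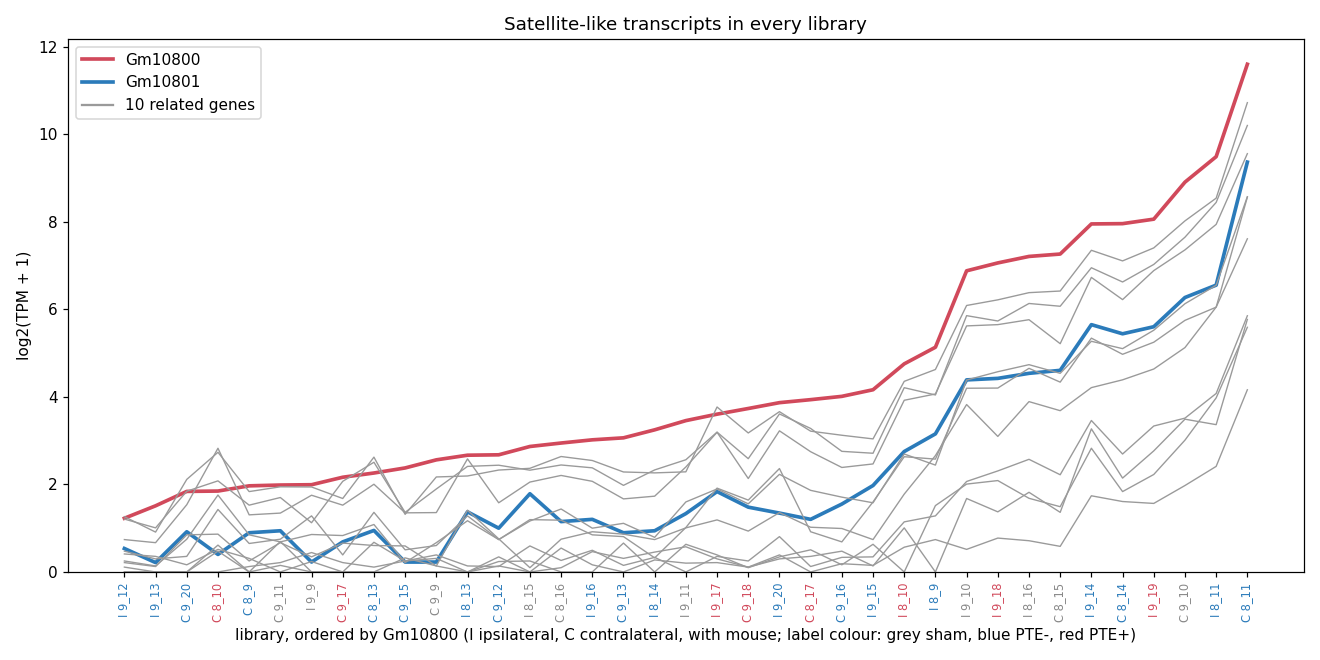
Lines give log2(TPM + 1) of Gm10800, Gm10801 and 10 related genes (the 9 listed ones and Gm21738, a further match) in 37 libraries ordered by Gm10800. All lines climb in the same libraries at the right, which come from sham, PTE- and PTE+ mice and end with both hemispheres of mouse 8_11.

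Agreement between the hemispheres was compared in the 17 mice with both. Gm10320 had the same state on both sides in all 17 mice when 1 TPM separated the states: 6 mice were at 1 TPM or more on both sides and 11 under 1 TPM on both. The 6 were sham mice 9_9, 9_10 and 9_11 and PTE- mice 8_13, 9_15 and 9_20. Of 508 genes that were under 1 TPM in at least 3 libraries and at 5 TPM or more in at least 3, 29 (5.71%) agreed in all 17 mice, and in 6 of these no library lay between 1 and 5 TPM. Separated at exactly 0, Gm10320 agreed in 11 mice, since traces of 0.13 to 0.77 TPM came and went. Spearman rho between its hemispheres was 0.785, above that of 97.1% of 10873 genes, whose median was 0.424.

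Separated at exactly 0, Gm20390 agreed in 13 mice, Gm10197 in 12, Gm10974 in 10 and Gm10217 in 8 of 17. Over all on-off genes the median was 13 mice, with quartiles of 10 and 14, and of these members only Gm10217 lay outside them. Such counts depend on how many libraries of a gene are at 0, which was not adjusted for. For Gm20390 and Gm10197 none of these mice was at 0 on both sides, so each 0 in them faced a value above it in the other hemisphere. Their 13 and 12 mice were thus the fewest possible for their numbers of 0 values in paired mice. Gm10197 was also at 0 in the ipsilateral libraries of PTE+ mouse 9_19 and PTE- mouse 9_14, which have no contralateral library. The 4 mice with a 0 of Gm20390 had 4.39, 30.8, 8.64 and 6.04 TPM opposite. Spearman rho was 0.483 for Gm10197, 0.374 for Gm10217, 0.281 for Gm10801, 0.245 for Gm20390, 0.086 for Gm10800 and -0.072 for Gm10974. In the satellite-like pair, mouse 8_11 was highest on both sides, while sham mouse 8_15 had 6.29 TPM of Gm10800 ipsilateral and 152 contralateral. These correlations describe 17 mice and were not tested.

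**Figure D4:**
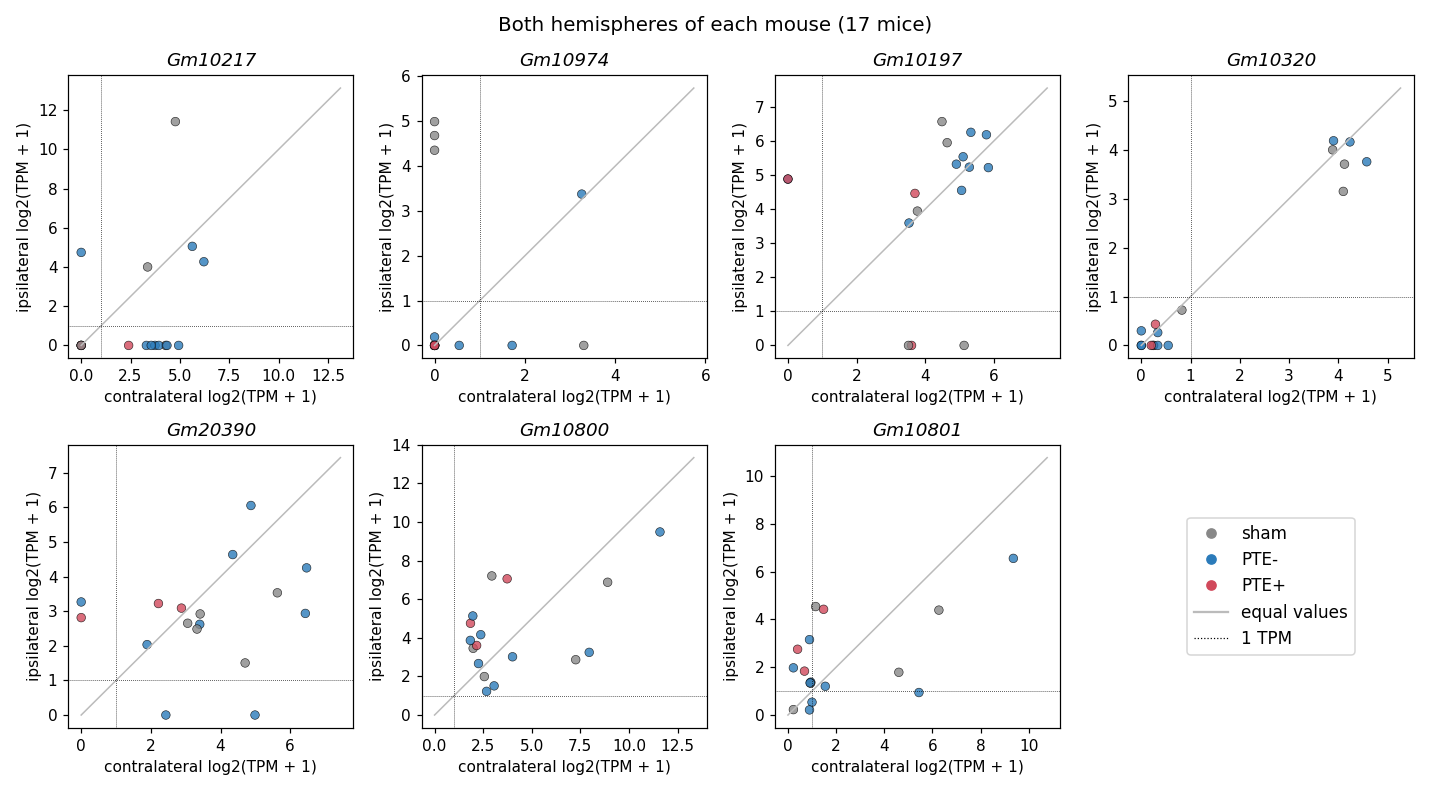
Each point is 1 of 17 mice, with contralateral log2(TPM + 1) on the horizontal and ipsilateral on the vertical axis, coloured by outcome, and dotted lines at 1 TPM. Gm10320 occupies only the lower left and upper right corners, whereas Gm10197, Gm10217, Gm20390 and Gm10974 have mice at 0 on a single side.

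Group differences were read on the log2(TPM + 1) scale with limma, which fits each gene and pools their spread. Only genes whose group mean passed 5 TPM in a compared group were tested. A gene was called differentially expressed (DEG) at a fold change of 1.2 or more with an unadjusted p below 0.05, the thresholds of the study. In ipsilateral CCI against sham mice, 169 of 10434 genes (1.62%) were DEGs and 0 passed an adjusted p of 0.05 (limma with Benjamini-Hochberg adjustment, 195 at an unadjusted p under 0.05). All 7 members passed the filter, Gm10974 and Gm10320 only through the sham mean (14.99 and 7.11 TPM, against 0.68 and 4.59 in CCI mice). Of the 7 members 1, Gm10974, met the DEG thresholds, on the values that chose it. The median difference of the 7 was 0.22, against -0.01 for all genes.

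No other member differed between ipsilateral CCI and sham mice beyond the spread of the libraries. A two-sided exact permutation over 11628 divisions of the libraries, whose smallest possible p is 8.6e-05, gave p = 0.267 for Gm10320 (-1.07 ± 0.89, SE) and p = 0.318 for Gm10217 (-1.76 ± 1.46). Gm10320 was below the sham median in 10 of 14 injured mice. Without sham mouse 9_11 the difference of Gm10217 was 0.32. Exact permutation p was 0.566 for Gm20390 (0.46 ± 0.73), 0.601 for Gm10197 (0.71 ± 1.19), 0.835 for Gm10801 (0.23 ± 0.98) and 0.873 for Gm10800 (0.22 ± 1.19). The adjusted limma p was 0.9997 for each of these 6. In both ipsilateral comparisons the libraries come largely from the mice whose contralateral values chose the members. The ipsilateral tests are therefore not independent of that choice.

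In ipsilateral PTE+ against PTE- mice, 60 of 10473 genes (0.573%) were DEGs and 0 passed an adjusted p of 0.05 (limma, 63 at an unadjusted p under 0.05). Of the members, 5 passed the filter and 1 met the DEG thresholds, Gm10197 (-2.34 ± 1.10, SE), again on values that chose it. It no longer met them without PTE+ mouse 8_10, without PTE+ mouse 9_19 or without PTE- mouse 8_11. Gm10800 was higher in PTE+ mice by 1.64 ± 1.33 and Gm10801 by 1.36 ± 1.10, with all 4 PTE+ mice above the PTE- median for both. Neither passed the exact permutation test over 1001 divisions, whose smallest p is 0.000999 (p = 0.300 for Gm10800 and 0.290 for Gm10801). Without PTE- mouse 8_11, a choice made after seeing the data, the differences were 2.23 and 1.83, with unadjusted limma p of 0.060 and 0.064. With all libraries the unadjusted limma p was 0.236 and 0.235. Without PTE+ mouse 9_19 the differences were 0.91 and 0.71, with unadjusted limma p of 0.545 and 0.566. Without PTE- mouse 9_14 they were 2.06 and 1.73, with unadjusted limma p of 0.104 and 0.0889. Leaving out any other PTE+ mouse gave p between those of these 2 omissions. Exact permutation p was 0.760 for Gm10217 (-0.30 ± 1.21), 0.847 for Gm10320 (-0.14 ± 1.14), which did not pass the filter, and 0.953 for Gm20390 (0.05 ± 0.93). All genes had a median difference of 0.12 here.

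The contralateral differences are descriptions, since they chose the members. Between contralateral CCI and sham mice, 428 of 10556 genes (4.05%) were DEGs, 0 of them at an adjusted p under 0.05 (limma, 472 at an unadjusted p under 0.05), and of the 6 members that passed the filter 0 were DEGs. Gm10320 differed by -1.51 ± 0.86 (SE), Gm10800 by -0.93 ± 1.36, Gm20390 by -0.91 ± 0.93, Gm10801 by -0.71 ± 1.21, Gm10197 by -0.17 ± 0.82, Gm10217 by 0.44 ± 1.057 and Gm10974, under the filter, by -0.24 ± 0.59. For Gm10800 and Gm10801 the sign rested on sham mouse 9_10, without which the differences were 0.11 and 0.19. Gm10197 turned to 0.17 without PTE+ mouse 9_17, Gm10217 to -0.18 without sham mouse 8_16 and Gm10974 to 0.42 without sham mouse 9_11. Without sham mouse 8_15 or 8_16, Gm10320 met the DEG thresholds. With all mice it passed the filter only through the sham mean (9.46 TPM, against 4.32 in CCI mice).

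Between contralateral PTE+ and PTE- mice, 291 of 10423 genes (2.79%) were DEGs, 0 of them at an adjusted p under 0.05 (limma, 303 at an unadjusted p under 0.05). Of the 6 members that passed the filter 2 met the DEG thresholds, Gm10217 and Gm20390, on the values that chose them. Gm10217, Gm20390, Gm10320 and Gm10801 passed the filter only through the PTE- mean. That mean was 6.18 TPM for Gm10320 (0.14 in PTE+) and 78.4 for Gm10801 (1.005 in PTE+). All 7 differences were below 0, as the choice of members made likely, with a median of -1.36 against 0.05 for all genes. Gm10801 differed by -1.42 ± 1.32 (SE), Gm10320 by -1.36 ± 0.91, Gm10197 by -1.30 ± 1.002, Gm10800 by -1.27 ± 1.47 and Gm10974, under the filter, by -0.61 ± 0.59. Mean TPM was 1.07 ± 2.15 (SD, n = 4) in PTE+ and 24.1 ± 23.2 (n = 9) in PTE- mice for Gm10217. For Gm20390 it was 2.64 ± 2.95 (SD, n = 4) and 29.8 ± 34.0 (n = 9). The difference of Gm10197 was -0.23 when PTE+ mouse 9_17 was left out and -2.10 when 8_17 was. Without PTE- mouse 8_11 the difference of Gm10800 was -0.35 and that of Gm10801 -0.54. Gm20390 was no longer a DEG without PTE+ mouse 8_10 or without PTE+ mouse 8_17. The PTE+ and PTE- libraries of a hemisphere enter both of its comparisons.

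**Figure D5:**
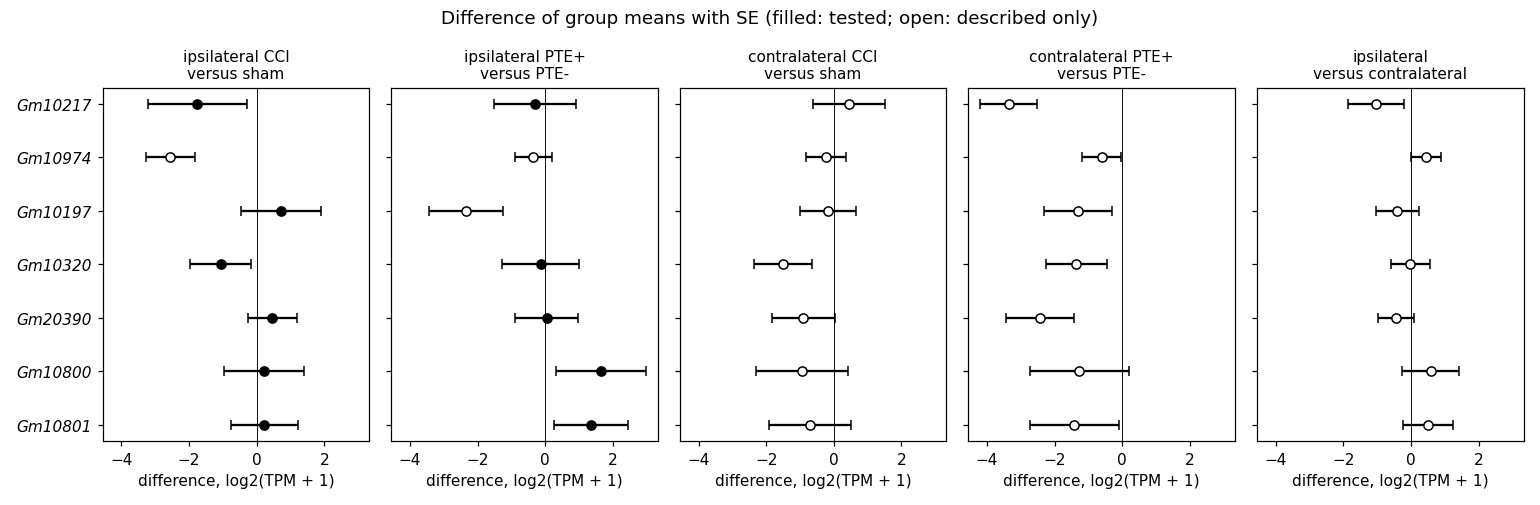
Points give the difference of group means on the log2(TPM + 1) scale, first group minus second, with SE, for each member in 5 comparisons, filled where tested and open where given as a description. In contralateral PTE+ against PTE- mice all 7 points lie left of 0, and in ipsilateral PTE+ against PTE- mice those of Gm10800 and Gm10801 lie right of 0.

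The hemispheres themselves were compared over all 37 libraries with a term for sham, PTE- and PTE+. Mice were not paired in this fit, so it treats both libraries of a mouse as independent. Of 10874 genes, 242 (2.23%) were DEGs and 0 passed an adjusted p of 0.05 (limma, 386 at an unadjusted p under 0.05), and of the 7 members 0 were DEGs. With mouse as replicate block over the 17 paired mice, 457 of 10869 genes (4.2%) were DEGs, again with 0 of the members among them. Gm10217 differed by -1.04 ± 0.83 on the log2 scale (ipsilateral minus contralateral, SE), and without sham mouse 9_11 by -1.48, which met the DEG thresholds. Gm10974 differed by 0.45 ± 0.44. The others differed by 0.59 ± 0.85 (Gm10800), 0.50 ± 0.73 (Gm10801), -0.43 ± 0.54 (Gm20390), -0.40 ± 0.64 (Gm10197) and -0.01 ± 0.57 (Gm10320). These values are descriptions and carry no test, since the contralateral libraries that chose the members enter them. In the replicate block the difference of Gm10197 was 0.17, on the other side of 0.

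By likeness of pattern over 37 libraries, the nearest genes were named by Pearson r of log2(TPM + 1). For Gm10800 and Gm10801 they were Gm10718, Gm10719 and Gm11168 (r = 0.984 to 0.989), all satellite-like. For Gm20390 they were Rep15 (0.830), Sec62 (0.829) and Unc13d (0.821). For Gm10217 they were Cacna1e (0.666), Cep85 (0.610) and Gm21798 (0.568), with lower Spearman rho (0.433, 0.298 and 0.368). Cacna1e also aligned with Gm10217, at 91.6% identity over 107 bases. The part of shared sequence and of the single library at 2735 TPM in these r was not tested. For Gm10197 they were Ptdss1 (0.618), Fgf1 (0.5997) and Twf1 (0.579), and for Gm10320 Lonp1 (0.613), 5031439G07Rik (0.594) and Olfr287 (0.546). For Gm10974 they were the mitochondrial genes mt-Atp6 (0.508), mt-Nd2 (0.507) and mt-Nd6 (0.501). Each r rests on libraries prepared in the same way, and the values describe these libraries only.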

How the data were processed

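Astrocyte RNA was analysed in 37 libraries. The authors prepared them with SMART-Seq v4, sequenced paired reads of 100 bases, trimmed them with Trim Galore (0.6.4), quantified them with RSEM (1.2.28) and Bowtie2 (2.4.1) on mm10, and deposited TPM per Ensembl gene in 1 table per hemisphere. Their count test (DESeq2 1.36.0) was not repeated, as the tables hold no counts. The annotation release used by RSEM is not given in the sources used here, and depth per library is unknown. Symbols, positions and transcript sequences came from GENCODE vM21 (GRCm38, the same assembly as mm10), which matched all 7 members. No member has an entry in the promoter table used here, and the sequence of Gm10974 is not reported here.

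Members and lists were chosen with earlier results of these data known. Differences of log2(TPM + 1) were fitted to all genes with limma 3.58.1 (R 4.3.3) with a variance trend, in the groups compared only, for genes whose mean passed 5 TPM in some group compared. Fold changes on this scale understate changes of low genes. Single ipsilateral members were tested by two-sided exact permutation. Sequences were aligned with BLAST 2.17.0 (e-value 1e-05, no masking). Within a hemisphere the libraries are separate mice, and mouse names pair the hemispheres. Deviations from group means over 10874 genes correlated within a mouse at a median r of 0.396 (0.041 to 0.675, above 0.1 in 16 of 17). The fits within a hemisphere were tested on simulated normal log2 values. Such values lack the many 0 values and single high libraries of the members, so limma was not checked on those. Named genes were the members, genes overlapping or related to them, the 3 most alike over all libraries, the 5 on-off genes with the highest TPM, a satellite list, Nme1, Nme2 and Gm14296. Alternatives were a pseudocount of 0.1, no filter, median centring, the mouse name prefix (8 or 9, meaning not stated) as a covariate, leaving out mice, and the mouse as replicate block.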

Additional observations from a re-analysis of the deposited data

Results flagged for a closer look

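Among 40 groups of 4 to 10 libraries in which a member could be examined for a library far from the rest (gap to the nearest library over the range of the group, above Dixon's 95% value), 12 had such a library. That value is set for normal values, whereas many of these are exactly 0, so no chance rate is given for the count. A group with a single library above 0 is always flagged, and the members were chosen for uneven values. For Gm10217 these were 2735 TPM in the ipsilateral library of sham mouse 9_11, 20.5 TPM in ipsilateral PTE+ mouse 9_19 and 4.29 TPM in contralateral PTE+ mouse 9_18, each facing libraries at or near 0. The library of 2735 TPM set the mean of ipsilateral sham mice, 550.0 TPM. For Gm10320 it was 16.8 TPM in ipsilateral PTE+ mouse 9_19.

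Mouse 8_11 (PTE-) gave 7 of the 12. Gm10800 was 716 TPM ipsilateral and 3094 contralateral, Gm10801 was 92.8 and 656, and Gm10974 was 9.38 and 8.58. Gm20390 was 65.6 TPM in its ipsilateral library. Gm10974 was also far from the rest at 8.88 TPM in the contralateral library of sham mouse 9_11.

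Gm20390 was lower in ipsilateral than in contralateral cortex in 5 of 5 sham mice (mean difference -1.41 on the log2 scale) and higher in 3 of 3 PTE+ mice. Of the 9 PTE- mice, 4 were higher and 5 lower. That difference between sham and PTE+ mice contains the contralateral PTE+ values that chose the gene, and was not tested. The share of all genes with such a pattern is not given here.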

How the results depend on the processing

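Depth is unknown, so an exact 0 cannot be told from a transcript with too few reads. With no filter on TPM the DEGs over all genes were 379 (ipsilateral CCI), 171 (ipsilateral PTE+), 682 (contralateral CCI), 458 (contralateral PTE+) and 375 (hemispheres), and without PTE- mouse 9_14 they were 399 and 197 in the ipsilateral comparisons. Of the PTE- mice only 9_14 (ipsilateral and hemispheres) and 8_11 were left out, beside each sham and PTE+ mouse. These omissions, 1 mouse at a time, gave 138 (sham 8_16) to 415 (sham 9_11), 23 (PTE+ 9_17) to 197 (PTE- 9_14), 231 (sham 9_11) to 883 (sham 9_9) and 201 (PTE+ 9_17) to 489 (PTE+ 9_18) in the first 4. On-off genes numbered 40 when on meant 10 TPM. Members that met the DEG thresholds ranged from 0 to 1 for ipsilateral PTE+, contralateral CCI and the hemispheres and from 1 to 2 for contralateral PTE+. For ipsilateral PTE+ the count was 0 with a pseudocount of 0.1 and with no filter. By setting, Gm20390 in ipsilateral PTE+ turned to -0.033 after median centring, Gm10217 there to 0.049 with the prefix of the mouse names as covariate, and Gm10320 between hemispheres to 0.011 after centring. With the same omissions, ipsilateral CCI ranged from -0.11 to 1.53 (Gm10197), -2.53 to 0.32 (Gm10217), -0.41 to 0.90 (Gm10800) and -0.33 to 0.75 (Gm10801). Ipsilateral PTE+ ranged from -1.41 to 0.069 (Gm10217), -0.024 to 0.38 (Gm20390) and -1.14 to 0.25 (Gm10320), and the hemispheres from -0.24 to 0.055 (Gm10320). The cause of these shifts was not tested.

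With the mouse as replicate block (17 pairs) there were 457 DEGs between hemispheres and Gm10197 was 0.17. It changed no call of a member. Leaving out PTE- mouse 8_11 was chosen after seeing the data.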
